A study of Mus musculus with 6 samples.

Results

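A set of 10 genes that interferons switch on against viruses was followed across all sections of the study. They are Isg15, Usp18, Ifit1, Ifit2, Ifit3, Mx1, Mx2, Rsad2, Gbp2 and Gbp3, spelled ISG15, USP18, IFIT1, IFIT2, IFIT3, MX1, MX2, RSAD2, GBP2 and GBP3 in the deposited tables. They were chosen by name, and the whole series lists 19378 genes. The control paw and the embryo sections for H3K27me3 and H3K27ac listed all 10, the embryo section for H3K4me3 listed 9, the arthritis paw 7 and the brain 6. Histone marks were read by position in mouse tissue laid on DNA arrays, where antibody-guided Tn5, an enzyme that cuts chromatin and joins barcodes to it, ties the fragments to an array spot. H3K27ac lies at active promoters and enhancers, H3K4me3 at active promoters, and H3K27me3 over genes silenced by Polycomb complexes.

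The groups were the paw of a mouse with CIA, an arthritis brought on by immunisation with collagen, at 42 days (H3K27ac), a control paw at 42 days (H3K27ac), the embryo at E11.5 for H3K27me3, H3K27ac and H3K4me3, and the wild-type adult brain (H3K4me3). Each group was 1 section, with strain and sex not given in the labels, so no difference below has a replicate check and none was tested. The paws were fixed, decalcified for days in acid and embedded in paraffin, and sections of 4 µm were cut near the talus in the ankle. Embryo and brain were cryosectioned at 16 and 20 µm. Intervals are exact 95% intervals and cover counting error alone.

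Interferons are cytokines that bind receptors on the cell surface and act through JAK kinases and STAT transcription factors. STAT proteins joined by Irf9 bind a short DNA element, the interferon-stimulated response element, in front of many interferon-stimulated genes. In a resting tissue these genes are kept low, and in inflamed joints, patients with arthritis included, interferon-stimulated genes are often part of the inflammatory programme.

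The core of that element was searched as GAAA, then any 2 bases, then GAAA again (TTTC in place of GAAA on the other strand), on both strands, in the RefSeq promoter windows (GRCm38.p6), which run from 250 bases before a gene's start to 50 after it. These stretches are shown because the element is the known switch of this class of genes. Of the 7 genes with a window in the table, 6 held the core at least once and 4 held it at least 2 times. Among all 27025 genes with a window, 3.99% held it and 0.266% held it at least 2 times. Each line gives the strand of the gene, 5′ to 3′, with matches to the core in capitals, overlapping matches merged.
Isg15: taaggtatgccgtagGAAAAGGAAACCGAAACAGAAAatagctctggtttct
Ifit1: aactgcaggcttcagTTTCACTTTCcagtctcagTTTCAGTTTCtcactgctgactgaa
Ifit3: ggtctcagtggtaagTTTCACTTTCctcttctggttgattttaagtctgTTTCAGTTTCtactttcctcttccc
Rsad2: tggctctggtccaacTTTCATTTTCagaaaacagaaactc
Gbp2: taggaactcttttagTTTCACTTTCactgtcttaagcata
Gbp3: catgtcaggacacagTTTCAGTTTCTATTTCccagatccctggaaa

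The stretches lie at chr4:156200860-156200911 (Isg15, minus strand), chr19:34640770-34640828 (Ifit1, plus), chr19:34583358-34583431 (Ifit3, plus), chr12:26456548-26456587 (Rsad2, minus), chr3:142620589-142620628 (Gbp2, plus) and chr3:142559984-142560029 (Gbp3, plus). The farthest match began 156 bases before the start (Ifit3) and the nearest 39 bases before it (Gbp3). Isg15 held 3 overlapping matches, Ifit1, Ifit3 and Gbp3 held 2 each, and Rsad2 and Gbp2 held 1 each. The 2 windows of Ifit2 held none, which says only that these letters are not in them. Mx1, Mx2 and Usp18 are named only.

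The deposited values were turned back into reads per gene and spot, on an assumption given with the processing below. A level is a gene's reads divided by the mean gene of its section. The counting window of a gene is not given in the sources used here, so a level is not per length and the 10 genes are not ordered against each other. The sections held 403483 to 5981684 reads in 248 to 1200 spots, with the paws the deepest. The median gene held 274 reads in the arthritis paw, 142 in the control paw, 120 in the brain, and 7 to 14 in the embryo. No read number of the 10 genes was a lower bound. The listed ones of the 10 genes took 5.61 of every 10000 reads in the arthritis paw (7 of 11130 genes) and 5.11 in the control paw (10 of 19378). In the embryo they took 3.80 for H3K27me3 (10 of 19046), 3.28 for H3K27ac (10 of 18943) and 3.84 for H3K4me3 (9 of 18066). In the brain they took 4.90 (6 of 11345). These shares sum different genes over different totals, so they are not compared between sections.

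**Figure D1:**
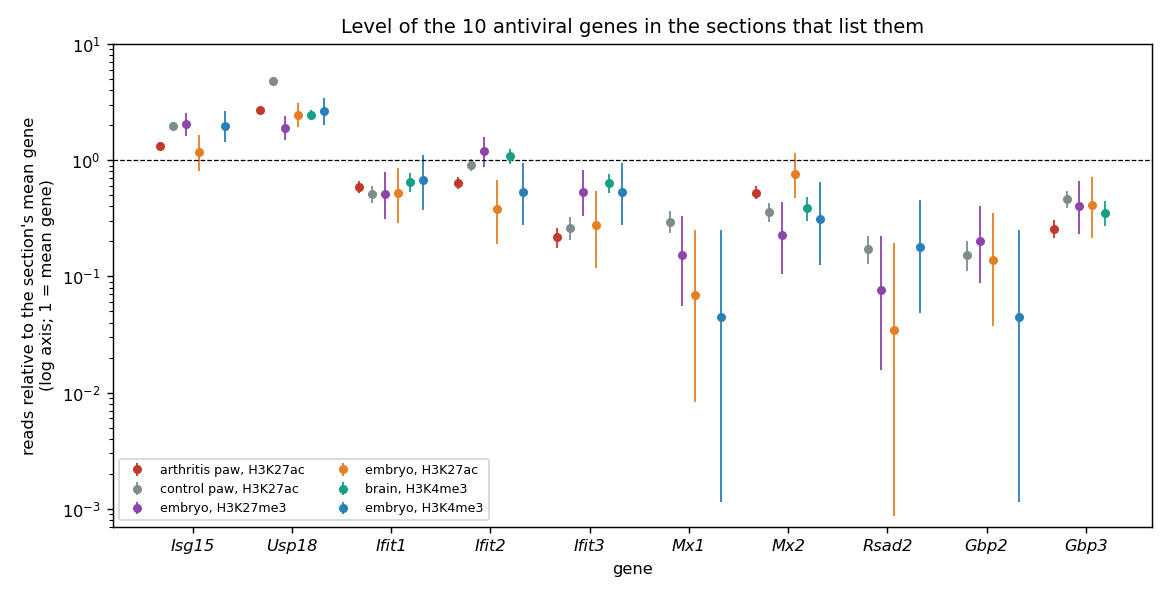
Reads of each gene relative to the mean gene of its section (log axis; the dashed line at 1 is the mean gene), with exact 95% counting intervals. A gene without a point is not listed in that section; Usp18 lay between 1.91 and 4.82 in the 6 sections, and intervals are wide in the shallow embryo sections.

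The comparison of the paws asks how H3K27ac on these genes differs in the arthritic joint. Relative to the median of all genes, the 7 antiviral genes that both paws list did not as a group carry more H3K27ac in the arthritis section. Mx2 and Ifit1 lay above the control paw, Usp18 and Gbp3 below it, and Isg15, Ifit2 and Ifit3 close to it. The log2 ratio was taken over the genes that both paws list, after 0.1 was added to each relative level, and a gene counted as higher or lower when it lay over 2-fold from the median of all genes. By that measure 0 of the 7 genes were higher and 0 were lower, where 9.84% of the 11130 genes compared were higher and 9.04% were lower. The median ratio of the 7 genes was -0.11, against 0.11 over all genes, and 2 of 7 lay above the median of all genes.

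Isg15 encodes a ubiquitin-like protein that is joined to other proteins, and to viral ones, after interferon. It had 637 reads in the arthritis paw and 606 in the control paw. The ratio was -0.16, and the reads alone, without the added 0.1, gave a counting interval of -0.34 to -0.01 on the log2 scale. That interval lies wholly below the median of all genes, by a small margin. The median, here and below, is of ratios after 0.1 was added, while the intervals are of reads alone.

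Usp18 encodes the protease that removes Isg15 from proteins and also dampens the type I interferon receptor. It had 1292 reads in the arthritis paw and 1487 in the control paw, levels of 2.69 and 3.67 on the scale of the genes that both list. The ratio was -0.44 (interval of the reads -0.56 to -0.34), at percentile 18.3 of all genes. It was the best-counted of the 7, but 6 of 12 other settings moved its ratio by more than its counting error, with values less the median of all genes between -0.73 and 0.01, against -0.54 as reported. Scored as the share of spots with a read, 67.8% in the arthritis paw and 80.5% in the control paw, its ratio lay 0.01 above the median of all genes.

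Ifit1 encodes a protein that binds viral RNA lacking the methylation of host caps. It had 283 reads in the arthritis paw and 157 in the control paw, a ratio of 0.50 (interval of the reads 0.32 to 0.89) and percentile 74.4. Its reads could not be told apart from those of Ifit1bl2, a neighbour of the same family. In the arthritis paw 100% and in the control paw 99.4% of the Ifit1 reads were matched by an Ifit1bl2 read in the same spot, and Ifit1bl2 itself had 308 and 198 reads and a ratio of 0.33.

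Ifit2 and Ifit3 encode proteins of the same family, which in humans form complexes with IFIT1. Ifit2 had 305 reads in the arthritis paw and 280 in the control paw, and its ratio of -0.11 had an interval of the reads of -0.36 to 0.12. Ifit3 had 104 and 80 reads, with a ratio of 0.09 and an interval of -0.30 to 0.57. Both intervals hold the median of all genes. The copy Ifit3b had 180 reads in the arthritis paw and 535 in the control paw, and matched 17.3% and 61.3% of the Ifit3 reads in the same spot. Spearman's rho between the copies was 0.02 over the 943 arthritis spots and 0.08 over the 554 control spots.

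Mx2 encodes a dynamin-like GTPase that blocks viral entry or replication. It had 253 reads in the arthritis paw and 110 in the control paw, levels of 0.53 and 0.27. Of the 7 genes it had the highest ratio, 0.75 (interval of the reads 0.63 to 1.29), at percentile 83.4. RefSeq's annotation of the mouse lists Mx1 and Mx2 as transcribed pseudogenes, a known trait of many laboratory strains, so their marks need not go with a working protein.

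Gbp3 encodes a guanylate-binding protein, one of the GTPases that attack the vacuoles of pathogens inside cells. It had 123 reads in the arthritis paw and 143 in the control paw, with a ratio of -0.35 (interval of the reads -0.82 to -0.11) and percentile 21.7. Summed, the 7 genes had 2997 reads in the arthritis paw and 2863 in the control paw, which is a ratio of -0.18 (interval -0.25 to -0.11). Without Usp18 the sums were 1705 and 1376, and the ratio was 0.06 (interval -0.04 to 0.17). Usp18 thus set the sign of the sum. Without it, the ratio still lay just below the median of all genes, 0.11, and the interval held that median.

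**Figure D2:**
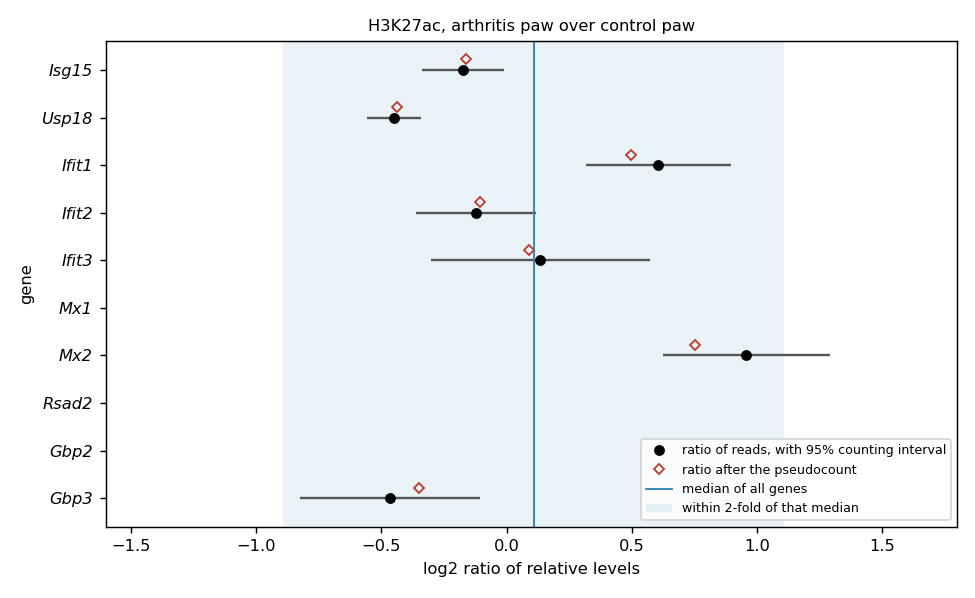
Log2 ratio of H3K27ac, arthritis paw over control paw, for each gene; black points and lines are the ratio of reads with its exact 95% counting interval, red diamonds the ratio after 0.1 was added to both levels. The line marks the median of all 11130 genes (0.11) and the band lies within 2-fold of it; all 7 diamonds lie inside the band, and Mx1, Rsad2 and Gbp2 are not listed in the arthritis paw.

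Mx1, Rsad2 and Gbp2 were listed in the control paw alone, with 91 reads (interval 73.3 to 112), 53 reads (39.7 to 69.3) and 47 reads (34.5 to 62.5). Rsad2 encodes viperin, which makes a nucleotide that stops viral polymerases, and Gbp2 is a relative of Gbp3. The arthritis table lists 11130 of the 19378 genes of the control table and no other gene, so 42.6% of genes are without a ratio. Genes it lacks had a median of 77 reads in the control paw, against 211 for those it lists. Of the 6381 control paw genes at or below the read number of Mx1, 23.6% were in the arthritis table. No level is claimed for the 3 genes in the arthritis paw.

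The Isg15 values also need its neighbour Agrn, the gene of agrin, a proteoglycan of the nerve-muscle junction. Of the Isg15 reads, 78.8% in the arthritis paw and 81.2% in the control paw were matched by an Agrn read in the same spot. Agrn had 590 and 580 reads and a ratio of -0.21, close to that of Isg15. The Isg15 reads without an Agrn partner numbered 135 in the arthritis paw and 114 in the control paw. The values of Isg15 and Agrn can therefore not be fully told apart.

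When the array rows of each paw were cut into 4 bands, the 7 genes took 5.43, 5.70, 6.02 and 5.25 of every 10000 reads in the arthritis paw. The 4 bands of the control paw, which are not the same rows, gave 4.78, 4.79, 4.94 and 4.67. Over array columns the reads of some of the 7 genes were less even in the control paw. In columns 1, 5, 9, 13, 17 and 21, Gbp3 held 2.11 times, Mx2 1.34 times and Usp18 0.52 times its share of the reads. Ifit2 at 1.00 and Isg15 at 0.96 were even there. All 4 arthritis bands lay above all 4 control bands on this scale. It divides by the reads of all genes listed in a section, and so by fewer genes in the arthritis paw. Over the genes that both paws list, the summed ratio of the 7 genes was -0.18, so the paws are not compared by these bands. Spots without a read of the 7 genes made up 8.80% of 943 spots in the arthritis paw and 6.68% of 554 in the control paw. The most reads in 1 spot were 15 and 20. The median spot held 5296 reads of all listed genes in the arthritis paw and 10114.5 in the control paw. Empty spots and highest numbers are therefore not compared between the paws. Over the spots, the share of the 7 genes went most with that of Agrn, at a Spearman's rho of 0.28 in the arthritis paw and 0.33 in the control paw. No gene passed 0.3 in the arthritis paw and no other gene did in the control paw, and Agrn reads match most Isg15 reads. Spots share depth, and a spot can hold several cells, so less mark per cell and fewer cells that carry it cannot be told apart.

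**Figure D3:**
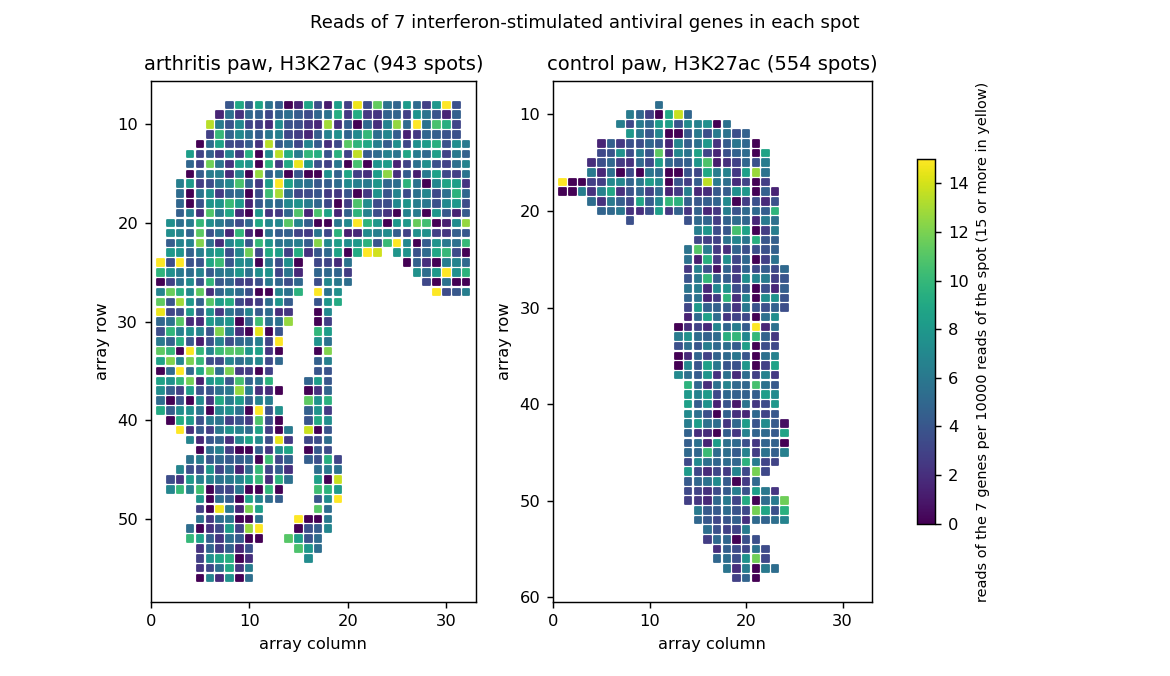
Position on the array (column and row) of each spot, coloured by the reads of the 7 genes listed by both paws per 10000 reads of the spot, with 15 or more in yellow. High and low spots are mixed over the arthritis section (943 spots) and the control section (554 spots). The bands of rows run between 5.25 and 6.02 in the arthritis paw and between 4.67 and 4.94 in the control paw. The reads of a spot are summed over fewer listed genes in the arthritis paw, so the paws are not compared on this scale.

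Other genes of the interferon pathway were set beside these. Their lists hold 96 genes, of which both paws list 55, with 7 higher, 4 lower and a median ratio of 0.26, while 35 of 55 lay above the median of all genes. The counts of calls are close to what the backgrounds of 9.84% higher and 9.04% lower give for 55 genes. The ligands had a median of 0.39 over 3 of 9 genes. Ifne, interferon epsilon, was higher at 1.11 (1303 reads in the arthritis paw, 487 in the control paw). Ifng, the gene of interferon gamma, lay at 0.39 (220 and 132 reads), and Ifnk, an interferon of keratinocytes, at 0.09.

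The receptor chains parted. Ifnlr1, the chain that binds interferon lambda, was higher at 2.13, with 660 reads in the arthritis paw and 96 in the control paw. Ifnar2, a chain of the type I receptor, was lower at -1.43, with 327 and 809 reads. Il10rb, the chain that the lambda and interleukin 10 receptors share, was lower at -1.13, with 286 and 576 reads. These were the 3 receptor genes that both paws list, of 6.

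The 4 listed signal transducers of 9 all lay above the median of all genes, with 1 of them past 2-fold. Irf9, the partner that guides STAT proteins to that element, was higher at 1.14 (209 reads in the arthritis paw, 58 in the control paw). Jak2, a receptor kinase, lay at 0.83 (502 and 221 reads) and Stat2, a STAT of the type I response, at 0.51 (663 and 381). Among the sensors of viral nucleic acid, listed for 5 of 12, Tlr3, the receptor for double-stranded RNA, was higher at 2.36, with 2153 and 322 reads. Tlr7, which senses single-stranded RNA, lay at 0.77, Zbp1 at -0.10 and Dhx58, a helicase of the RIG-I type, at -0.26.

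Of 41 further interferon-induced genes, 29 were compared, with a median of 0.23, 2 higher and 2 lower. Dtx3l, a ubiquitin ligase, had the highest ratio at 3.68, with 2891 reads in the arthritis paw and 153 in the control paw. Parp14, an ADP-ribosyltransferase, was higher at 1.34 (1412 and 444 reads). Trim21, a receptor for antibodies inside the cell, was lower at -3.22 (367 and 3209 reads), and so was the nucleotide kinase gene Cmpk2, a neighbour of Rsad2, at -0.94 (147 and 276). The other interferon-induced GTPases, the group that Mx2 and Gbp3 belong to, had a median of 0.03 over 7 of 14 genes, with 0 calls. Irgm2 lay at 0.66, Irgm1 at 0.34, Gbp8 at -0.13 and Gbp10 at -0.39, so Gbp10 and Gbp3 had similar ratios.

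The negative regulators besides Usp18 had a median of 0.24 over 4 of 5 genes. The phosphatase gene Ptpn6 was higher at 1.23 (1669 reads in the arthritis paw, 577 in the control paw). Socs3, an inhibitor of JAK kinases, lay at 0.53, Pias1 at -0.06 and the phosphatase gene Ptpn2 at -0.12. Usp18 at -0.44 thus lay below all 4 of them.

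**Figure D4:**
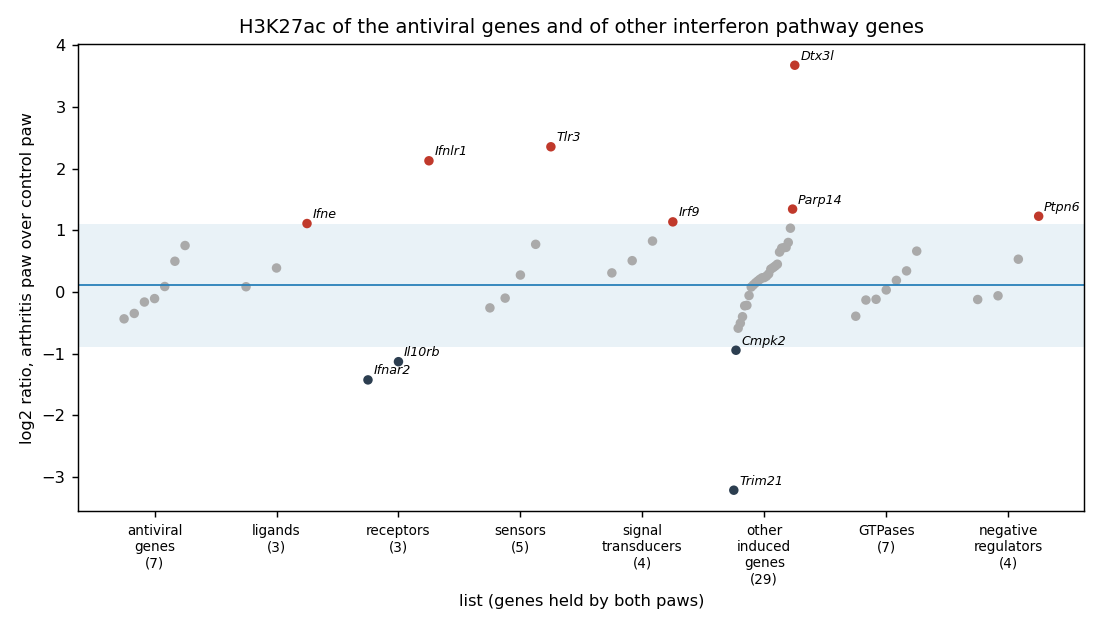
Log2 ratio of H3K27ac, arthritis paw over control paw, for each gene that both paws list, grouped by role (number of genes in brackets). The line is the median of all genes (0.11), the band lies within 2-fold of it, and genes outside it are named, with higher ones in red and lower ones in dark blue; the 7 antiviral genes all lie inside.

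Markers of immune cells did not move one way between the paws, and their part in the ratios was not tested. Both paws list 2 of 5 macrophage markers, with 286 reads in the arthritis paw and 183 in the control paw, and 3 of 4 dendritic cell markers, with 1979 and 762 reads. They list 2 of 4 T and NK cell markers (1892 and 678 reads), 2 of 3 B cell markers (558 and 3037) and 3 of 4 neutrophil markers (778 and 2094). General leukocyte markers, 2 of 4, had 449 and 601 reads, and the 2 went opposite ways. Cd52 had 85 and 48 reads (ratio 0.34) and Laptm5 had 364 and 553 (ratio -0.77). No marker that a table lists was at 0. Of the joint's own tissues, 3 of 4 synovium and fibroblast markers had 3886 and 1436 reads, and 2 of 4 cartilage markers had 534 and 827. The 4 of 5 skin markers had 4001 and 1813 reads and the 3 of 4 muscle markers 2163 and 979. Single genes carried several of these sums, with Siglech (1422 and 283 reads) in the dendritic cell list while Flt3 lay at -0.23. In the muscle list it was Mylpf (1478 and 422), while Ckm lay at -0.39. In the fibroblast list it was Col1a1 (2897 and 502), while Pdgfra lay at -0.08 and Thy1 at -0.30. Whether the make-up of the sections plays a part was not tested. Neuron markers lay at a median percentile of 93.1 in the arthritis paw and 83.7 in the control paw, against 93.0 in the brain, so these markers lay high in the paws as well.

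In the embryo the question is which of the 3 marks the antiviral genes carry. The reads of most of the 10 genes were too few to separate the marks. Setting H3K27me3 against H3K27ac, the 10 genes had a median ratio of 0.36, against -0.12 over all genes, and 8 of 10 lay above it. Ifit2 alone was higher and Mx2 alone was lower by over 2-fold from the median of all genes, where 12.3% of 18653 genes were higher and 11.6% lower, so 1 call each way among 10 genes is close to the background.

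Ifit2 had 47 reads for H3K27me3, 11 for H3K27ac and 12 for H3K4me3. Its ratio of H3K27me3 over H3K27ac was 1.42 (interval of the reads 0.68 to 2.74). Against H3K4me3 it was 0.96 (interval 0.15 to 2.14), within 2-fold of the median of all genes. The H3K27me3 reads lay in 40 of 254 spots, with at most 3 in a spot.

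Mx2 had 9 reads for H3K27me3, 22 for H3K27ac and 7 for H3K4me3. The ratio of H3K27me3 over H3K27ac was -1.39 (interval of the reads -3.04 to -0.56), and that of H3K27ac over H3K4me3 was 1.01 (interval -0.05 to 2.69). With 1 in place of 0.1 added to the levels, neither Ifit2 nor Mx2 was past 2-fold.

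Isg15 had 80, 34 and 44 reads for H3K27me3, H3K27ac and H3K4me3. Its ratio of H3K27me3 over H3K27ac was 0.74 (interval of the reads 0.19 to 1.41), and of H3K27ac over H3K4me3 -0.75 (interval -1.49 to -0.12). Agrn matched 50% of the H3K27me3 reads, 64.7% of the H3K27ac reads and 81.8% of the H3K4me3 reads. The unmatched reads were 40 for H3K27me3, 12 for H3K27ac and 8 for H3K4me3. Agrn had 41, 30 and 37 reads in the same order, which limits how many could be matched.

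Usp18 had 75, 71 and 59 reads in the same order of marks, and a level of 1.91 for H3K27me3, 2.45 for H3K27ac and 2.64 for H3K4me3. Its ratio of H3K27me3 over H3K27ac was -0.35 (interval of the reads -0.86 to 0.12), and that of H3K27me3 over H3K4me3 was -0.51 (interval -1.04 to -0.01), below the median of all genes. Ifit1 had 20, 15 and 15 reads, and Ifit1bl2 matched 100% of them in each of the 3 sections. Ifit3 had 21, 8 and 12 reads, and Gbp3 had 16 for H3K27me3 and 12 for H3K27ac.

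Mx1, Rsad2 and Gbp2, the 3 genes that the arthritis table lacks, had few reads in the embryo. Mx1 had 6 reads for H3K27me3, 2 for H3K27ac and 1 for H3K4me3, Rsad2 had 3, 1 and 4, and Gbp2 had 8, 4 and 1. For each of the 3 genes, the counting intervals of the levels overlap between all marks. Rsad2 was the sole call of H3K27ac over H3K4me3, lower at -1.06, on 1 read against 4, and its interval of -8.05 to 0.91 spans 0.

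Against H3K4me3, H3K27me3 gave the 9 genes listed in all embryo sections a median of -0.06, against 0.08 over all genes, with 0 of 9 called (background 13.3% higher and 11.1% lower). H3K27ac against H3K4me3 gave -0.36, against 0.20, with 2 of 9 above the median of all genes and 1 lower (background 12.9% higher and 12.3% lower). Only 1 of the 9 intervals, that of Isg15, lay wholly to 1 side of the median of all genes. The 3 ratios share sections, so they are not independent of each other.

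**Figure D5:**
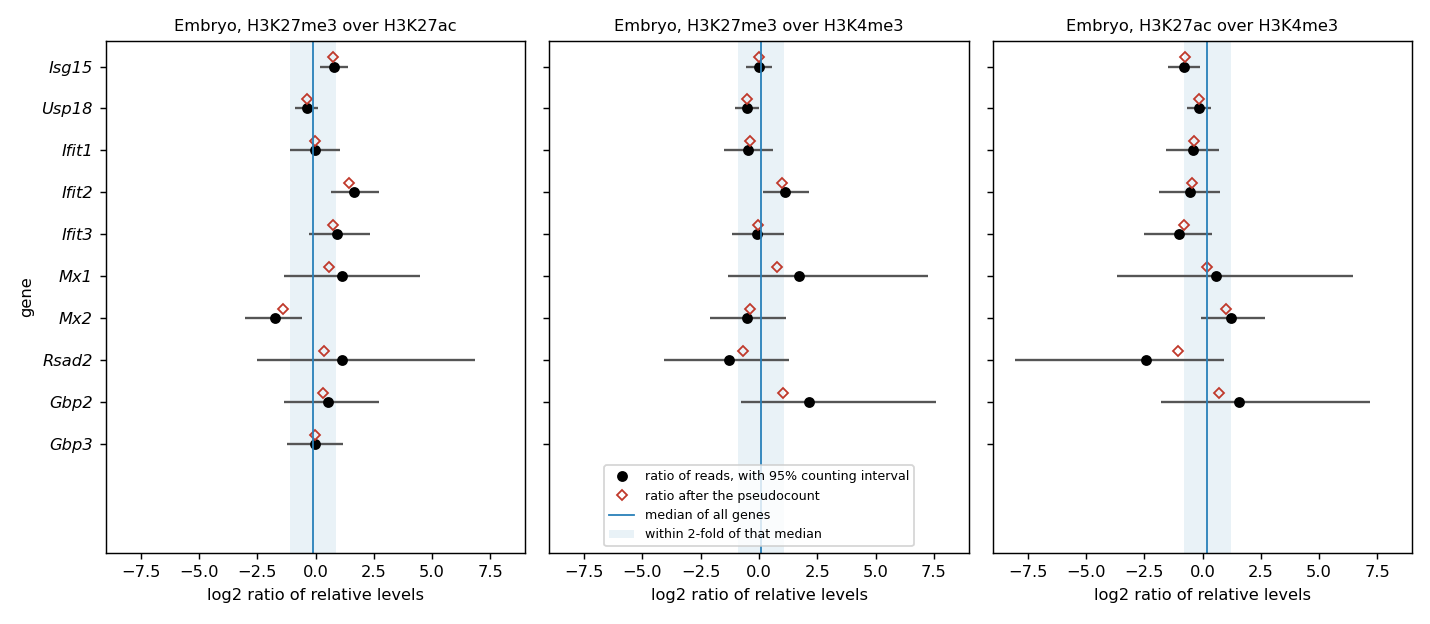
Log2 ratios between marks in the E11.5 embryo for each gene; black points and lines are the ratio of reads with its exact 95% counting interval, red diamonds the ratio after 0.1 was added to both levels, the line the median of all genes and the band 2-fold around it. For H3K27me3 over H3K27ac, the intervals of Isg15 and Ifit2 lie above the median of all genes and that of Mx2 below it, and those of Mx1, Rsad2 and Gbp2 are wide.

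Elsewhere in the pathway, large ratios between marks were seen in single genes such as Irgm2 and Bst2. Irgm2, a GTPase that guards vacuoles, had 2 reads for H3K27me3, 521 for H3K27ac, spread over 205 of 251 spots, and 3 for H3K4me3. Bst2, the gene of tetherin, which holds budding viruses at the membrane, had 6 reads for H3K27me3, 13 for H3K27ac and 104 for H3K4me3. Among pathway genes with at least 100 reads in the 2 sections together, Socs3 had the highest ratio of H3K27me3 over H3K27ac, at 1.38 (81 and 21 reads), and the RNA editing gene Adar the highest of H3K27me3 over H3K4me3, at 1.55 (132 and 23 reads). For the 10 antiviral genes, all ratios between marks lay between -1.39 and 1.42. By the reads alone, the lowest was -2.43 (Rsad2, H3K27ac over H3K4me3, 1 and 4 reads, interval -8.05 to 0.91). The highest was 2.12 (Gbp2, H3K27me3 over H3K4me3, 8 and 1 reads, interval -0.78 to 7.59). Most of the antiviral genes had few reads, so their range is not compared with the ratios of the other pathway genes.

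In the brain, H3K4me3 was read on 6 of the 10 genes. Usp18 had 442 reads there, Ifit2 194, Ifit1 116, with 100% of them matched by Ifit1bl2, Ifit3 114, Mx2 69 and Gbp3 63. Isg15, Mx1, Rsad2 and Gbp2 were not listed in the brain. Of the 1752 control paw genes with at least the H3K27ac reads of Isg15, 83.1% were listed in the brain, and Isg15 was not. The 2 sections differ in tissue and in mark, and Agrn matched 81.2% of the Isg15 reads in the control paw.

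Brain against embryo H3K4me3 could be compared for 5 genes, with tissue and age differing together. None was past 2-fold from the median of all genes (0 of 5, with a background of 7.23% higher and 11.7% lower), and 1 of 5 lay above that median, 0.66. Ifit2 had the highest ratio, 1.13 (194 reads in the brain and 12 in the embryo, interval of the reads 0.46 to 2.28). Ifit3 lay at 0.45, Mx2 at 0.44, Ifit1 at 0.20 and Usp18 at 0.18. Of their intervals, that of Usp18 (-0.20 to 0.61) lies below the median of all genes, and the other 4 hold it. In the wider lists, 51 of 96 genes were compared, with 2 higher, 7 lower and a median of 0.52. Psmb8, a subunit of the immunoproteasome, was the highest at 1.97, on at least 3013 brain reads against 115 embryo reads, and Bst2 the lowest at -3.01 (69 and 104 reads).

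Genes whose promoter window holds the response element core had median ratios near those of genes whose window lacks it. In the paw, the 322 such genes had a median of 0.20, against 0.11 for the 8440 others. For H3K27me3 over H3K27ac in the embryo, both medians were -0.12, and for H3K27ac over H3K4me3 both were 0.20. For H3K27me3 over H3K4me3 they were 0.06 with the core and 0.08 without it, and for brain over embryo 0.55 and 0.66. Of the 6 antiviral genes with the core, 4 were listed by both paws, and their paw ratios ran between -0.35 (Gbp3) and 0.50 (Ifit1).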

How the data were processed

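The authors deposited 1 table per section of quantile-normalised signal values per gene and array spot. MACS2, featureCounts and Bowtie2 were named, with the builds mm9 and hg19, per the submitters' processing notes. Their versions and roles, and the counting windows, were not given in the sources used here. Within a spot, the deposited signal was taken to rank genes of equal count in 1 gene order, so that genes without reads can hold values above 0. Reads were therefore recovered from the tied ranks, in which each fall in gene order marks 1 further read, and the deposited values served as an alternative. The decoding was run on simulated data made with the same order of ties. That run cannot show that the deposited values were made in this way. Levels are reads over the section's mean gene. Ratios are log2 after a pseudocount of 0.1, relative to the genes both sections list. Intervals are exact Poisson or conditional binomial (95%). Those of ratios leave out the pseudocount, while the median of all genes that they are set against carries it. All 10 genes are named; of each pathway list, the 2 highest and 2 lowest paw ratios with at least 100 reads, and 1 of each over all lists in the other comparisons; 1 gene that this rule picks is not reported here. The genes and lists were chosen with earlier results of these data known. With 1 section per group no test was possible. A read is matched to a neighbour as the smaller of the 2 numbers in a spot. Python 3.11.15, NumPy 2.4.6, pandas 2.3.3, SciPy 1.17.1, numba 0.67.0 and Matplotlib 3.10.9 were used.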

Additional observations from a re-analysis of the deposited data

How the results depend on the processing

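The median ratio of the antiviral genes, less the median of all genes, was -0.22 in the paw (-0.28 to -0.09 over the alternatives), 0.50 for H3K27me3 over H3K27ac over the 9 genes listed in all embryo sections (0.11 to 0.94), -0.14 for H3K27me3 over H3K4me3 (-0.38 to 0.06), -0.56 for H3K27ac over H3K4me3 (-0.79 to -0.22) and -0.22 for brain over embryo (-0.39 to -0.10). No called value changed sign. Counts past 2-fold were 0 of 7 in the paw, against 2 with a trimmed mean over spots, and 0 of 5 in the brain, against 1 with the deposited values and 1 with odd columns. For H3K27me3 over H3K27ac 2 became 0 with a pseudocount of 1 and 5 with 0.01. For H3K27me3 over H3K4me3 0 became 3 with a pseudocount of 0.01, with scaling by the median gene and in even columns, 2 in odd columns and in spots with more genes, and 1 with the deposited values, the share of spots, the mean of spot shares and without array columns 1, 5, 9, 13, 17 and 21. For H3K27ac over H3K4me3 1 became 4 with a pseudocount of 0.01, 3 with scaling by the median gene, the mean of spot shares, even columns and odd columns, 2 with the share of spots, without those array columns and in spots with more genes, and 0 with a pseudocount of 1 or with low genes left out. Embryo counts thus rest on few reads. The median level, 0.59 in the arthritis paw, was 1.03 scaled by the median gene, 0.51 as a trimmed mean and 0.84 by the share of spots. In the control paw, 0.41 became 0.33 with the deposited values, 0.89 by the median gene, 0.28 as a trimmed mean, 0.70 by the share of spots and 0.52 with low genes left out. In the embryo, 0.46 for H3K27me3 became 1.29 by the median gene, 0.40 for H3K27ac became 0.20 with the deposited values and 0.96 by the median gene, and 0.54 for H3K4me3 became 0.21 and 1.71 in the same order. In the brain, 0.64 became 0.43 with the deposited values, 0.96 by the median gene and 1.12 with low genes left out. The cause of these moves was not tested. Trimmed means gave no value in the embryo and brain, where the median gene is then 0. No paired analysis was possible because each group holds 1 section.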

Other observations

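In the control paw, the reads of several of the antiviral genes were uneven over array columns, and whether spot depth plays a part was not tested. In columns 1, 5, 9, 13, 17 and 21, the part of a gene's reads was divided by the part of all reads that fell there. By that measure Gbp3 held 2.11 times its share, Gbp2 1.81 times, Rsad2 1.61 times and Mx1 1.45 times, while Usp18 held 0.52 times. Mx2 held 1.34 times, Ifit3 1.26 times and Ifit1 1.23 times, and Ifit2 at 1.00 and Isg15 at 0.96 were even. No interval was taken for these values, and Gbp2, Rsad2 and Mx1 had only 47, 53 and 91 reads in the whole section. In the arthritis paw, the 7 listed genes held between 0.84 (Ifit2) and 1.14 (Ifit1) times their share there. Without these columns, the paw ratio less the median of all genes was -0.29 for Gbp3, against -0.46 with them, and -0.65 for Usp18, against -0.54.

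Usp18 and its neighbour Tuba8, a tubulin gene, were more alike over spots in the control paw than in the arthritis paw, a difference that was not tested. Tuba8 had 162 reads in the arthritis paw and 677 in the control paw. Spearman's rho with Usp18 over spots was 0.07 and 0.47, and 8.98% and 37.7% of the Usp18 reads were matched by a Tuba8 read in the same spot.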
